A study of Mus musculus with 7 samples.

Results

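The genes of cellular iron traffic were examined in the retinal pigment epithelium (RPE), the pigmented layer behind the photoreceptors, of aged mice. They are a fixed list of 10 symbols: the carrier transferrin (Trf), the importers Tfrc and Slc11a2, the ferritin subunits Fth1 and Ftl1, the exporter Slc40a1, the copper ferroxidases Cp, Heph and Hephl1, and the regulator Ireb2. All 10 were found among the 21861 rows of the deposited count table, and 9 had enough counts to be tested; Hephl1 did not. The 3 Old-GFP libraries came from RPE treated with AAV-GFP, an adeno-associated virus carrying green fluorescent protein, and served as the vector control. The 4 Old-GSTA4 libraries came from RPE treated with AAV-GSTA4, which carries GSTA4, a glutathione transferase that conjugates aldehydes made when lipids oxidise. Both groups were aged and were collected 12 weeks after treatment; the strain, sex, age in months and vector promoter are not given in the sources used here. Nor is it stated which libraries came from separate animals, so the p-values measure the spread between these samples, which may be partly technical.

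Iron reaches the RPE bound to transferrin in the choroidal blood, and the RPE also makes transferrin itself. Transferrin is taken up by the transferrin receptor Tfrc, and the divalent metal transporter Slc11a2 moves the released ferrous iron out of the endosome. Iron that is not used is stored in ferritin, a shell of heavy chains (Fth1), which oxidise the iron, and light chains (Ftl1), which help it to mineralise. It leaves through ferroportin (Slc40a1), aided by the ferroxidases ceruloplasmin (Cp) and hephaestin (Heph), which turn ferrous iron into the ferric form that transferrin binds. Mice that lack Cp and Heph accumulate iron in the RPE with age. Free ferrous iron drives lipid peroxidation, the source of the aldehydes on which GSTA4 acts.

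Much of this traffic is set by the iron regulatory proteins, Aco1 and Ireb2, which bind a hairpin called the iron-responsive element (IRE) when iron is scarce. A hairpin before the coding sequence blocks translation, whereas hairpins after it protect the mRNA from decay, so counts of mRNA can report on the second kind but not directly on the first. The members that carry a hairpin of the shape searched are shown, because its place bears on whether their mRNA level can follow it. Elements of another shape are not found by this search. The sense strand of GENCODE M21 transcripts (GRCm38) was searched for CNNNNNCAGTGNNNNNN in which the 5 bases on either side of the loop CAGTGN form 5 base pairs, G with T included. The search found 7 sites in 4 of the 10 members: 1 each in the 5′ UTR of Fth1, Ftl1 and Slc40a1, and 4 in the 3′ UTR of Tfrc. Each is printed 5′ to 3′ over 27 bases, as DNA, with the loop in capitals.
Fth1, exon, 5′ UTR, chr19:9982733-9982759, plus strand: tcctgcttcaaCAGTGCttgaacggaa
Ftl1, exon, 5′ UTR, chr7:45459780-45459806, minus strand: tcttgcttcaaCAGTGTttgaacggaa
Slc40a1, exon, 5′ UTR, chr1:45925466-45925492, minus strand: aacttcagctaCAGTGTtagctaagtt
Tfrc, exon, 3′ UTR, chr16:32631220-32631246, plus strand: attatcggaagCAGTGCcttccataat
Tfrc, exon, 3′ UTR, chr16:32631599-32631625, plus strand: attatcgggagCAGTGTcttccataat
Tfrc, exon, 3′ UTR, chr16:32631664-32631690, plus strand: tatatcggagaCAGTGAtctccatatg
Tfrc, exon, 3′ UTR, chr16:32631711-32631737, plus strand: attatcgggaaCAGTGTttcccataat
Among all protein-coding genes, 0.148% of 20916 with an annotated 5′ UTR and 0.613% of 21039 with a 3′ UTR held such a match. The other 6 members, Trf, Slc11a2, Cp, Heph, Hephl1 and Ireb2, had no match in any annotated coding transcript, which says only that these letters with this pairing are absent from those transcripts.

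Library sizes lay between 15329181 and 28998964 counts. The human GSTA4 row, which checks the labels, had 1 to 3 counts in Old-GFP and 4209, 5239, 45 and 1184 in Old-GSTA4 replicates 1 to 4. Replicate 3, with the fewest of that group, held the highest Trf, Heph and Lrp1 of all 7 libraries. Replicate 2, with the most, held the highest Ftl1, Cp, Hmox1 and Cubn. No relation of any gene to the GSTA4 count was tested. RPE markers took 3.38% to 7.37% of counts in Old-GFP and 5.89% to 9.95% in Old-GSTA4, and all 18 were detected. Of these, 14 had a log2 fold change above 0 and 4 below, with a median of 0.60, against -0.07 over all genes. Old-GFP replicate 3 stood apart, with a TMM factor of 1.36 against 0.868 to 1.05 elsewhere, the lowest RPE share and the highest rod share. Lens markers took 0.465% to 1.58% of counts in Old-GFP and 0.464% to 12.6% in Old-GSTA4, with the most in Old-GSTA4 replicate 2. All 11 lens markers tested had a log2 fold change above 0, with a median of 2.46. In edgeR's test 8 of the 11 had an unadjusted p-value under 0.05, against 5.27% of all genes in the higher direction. The groups overlapped for each of the 11. Rod markers took 1.82% to 6.44% in Old-GFP and 0.904% to 1.64% in Old-GSTA4, without overlap. Müller glia and astrocyte markers, some of which the RPE also makes, took 1.27% to 1.44% and 1.599% to 2.18%, also without overlap. The other lists overlapped between the groups: oligodendrocyte 0.0422% to 0.153% and 0.0792% to 0.155%, macrophage and microglia 0.157% to 0.358% and 0.149% to 0.326%, erythroid 0.0603% to 0.109% and 0.0386% to 0.215%. Choroidal endothelium took at most 0.0262%, melanocytes and choroidal stroma at most 0.113%, and ciliary epithelium and lacrimal tissue at most 0.00796%, where Obp1a was at 0 in every library. In bulk tissue, fewer cells of a type and less RNA per cell cannot be told apart.

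Transferrin and hephaestin stood higher in every Old-GSTA4 library than in any Old-GFP library, with fitted folds of 2.10 and 2.00. For the ferritin chains the log2 fold change was 0.70 for the light chain and -0.12 for the heavy chain. Their ratio did not overlap between the groups. For comparison, ratios to each other gene tested did not overlap for 9.73% of genes with Fth1 and 19.7% with Ftl1. The ranges of the importers, ferroportin and Ireb2 overlapped between the groups, and ceruloplasmin ranged from 33.3 to 329 CPM within Old-GSTA4. None of the 9 members tested passed the threshold, set at 0.05 for the p-value of edgeR's quasi-likelihood F-test after Benjamini-Hochberg adjustment over all genes, where 0% of 15075 genes passed. The human GSTA4 row did not pass either, with 1 to 3 counts in Old-GFP and 45 to 5239 in Old-GSTA4. Failing this threshold therefore does not show that a gene is unchanged. DESeq2 called 201 of the 15075 genes, among them 1 of the 9 members, Trf. Before adjustment, p was under 0.05 for 2 of 9 members, Trf and Heph, both higher, against 11.9% of all genes in either direction and 5.27% of all genes in the higher direction. The groups did not overlap for the same 2 of 9 members, against 12.0% of all genes in either direction and 6.44% in the higher direction. The log2 fold change was above 0 for 6 of the 9, against 44.6% of all genes, and its median was 0.24, against -0.07 over all genes. Scaled to library totals, 3 of the 9 were above 0 and the median of all genes was -0.37. Under that scaling the share of higher genes among those with an unadjusted p-value under 0.05 moved from 44.3% to 11.1%.

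**Figure D1:**
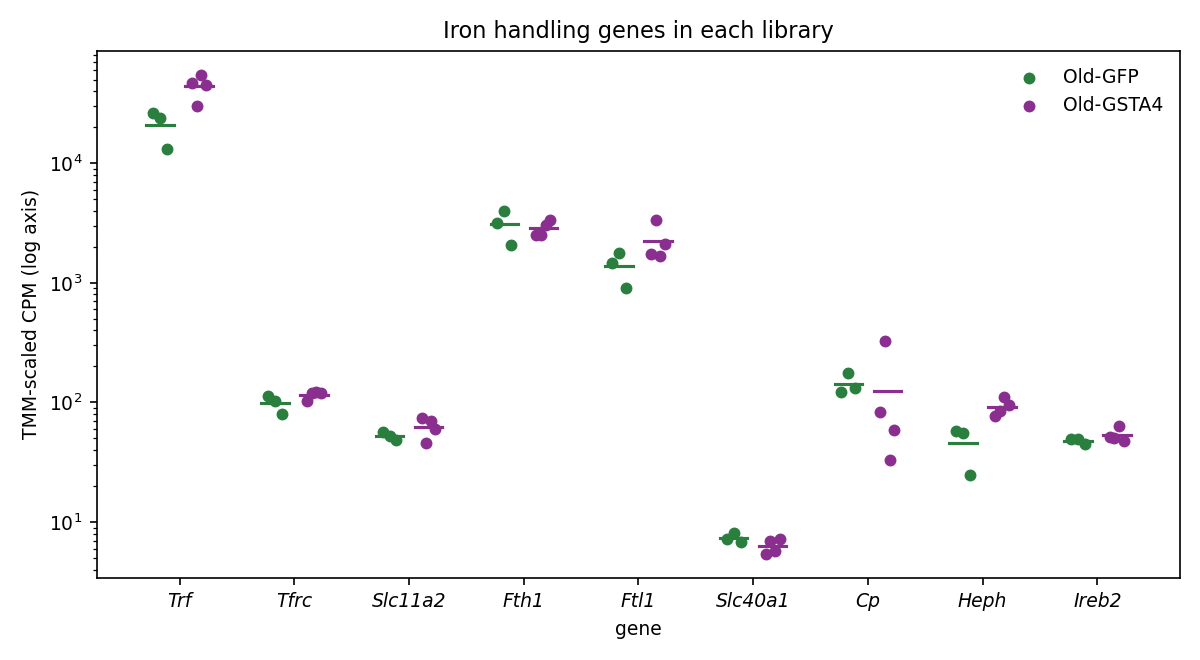
TMM-scaled CPM (counts per unit of library size, log axis) of the 9 tested members in each library; points are libraries, green for Old-GFP (n = 3) and purple for Old-GSTA4 (n = 4), and bars are group means. The 4 Old-GSTA4 points lie above the 3 Old-GFP points for Trf and Heph, and Cp spreads from 33.3 to 329 CPM in Old-GSTA4.

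The levels of different genes were compared per length, as TMM-scaled CPM per kilobase of the longest principal mRNA in GENCODE M21, and this order is a description with no test. In Old-GFP the mean was 8208 ± 2728 (SD, n = 3) for Trf, 2072 ± 647 for Fth1 and 1425 ± 445 for Ftl1. The next were Cp at 35.7 ± 7.21, Tfrc at 20.2 ± 3.43 and Slc11a2 at 17.4 ± 1.39. Heph at 9.69 ± 3.90 and Ireb2 at 8.33 ± 0.422 came below them, followed by Slc40a1 at 2.18 ± 0.197. The carrier and the storage proteins thus stood well above the membrane transporters. Neighbours whose ranges overlapped over the Old-GFP libraries were Fth1 and Ftl1, Tfrc and Slc11a2, and Heph and Ireb2. In Old-GSTA4 the mean of Ftl1, 2311 ± 817 (SD, n = 4), exceeded that of Fth1, 1908 ± 266, in CPM per kilobase. Ftl1 was above Fth1 in replicates 1 and 2 (1809 against 1697, and 3501 against 1682) and below it in replicates 3 and 4 (1746 against 2023, and 2190 against 2229), so the order of the means rests on replicate 2. Heph at 19.4 ± 3.09 and Slc11a2 at 20.7 ± 4.18 overlapped.

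Transferrin (Trf, ENSMUSG00000032554.15, GRCm38 chr9:103204001-103230444, minus strand) binds ferric iron and carries it between cells. By counts it ranked 2 or 3 among all mouse genes in every library. It held 26400, 23760 and 13150 CPM in Old-GFP replicates 1 to 3. In Old-GSTA4 replicates 1 to 4 it held 47290, 30210, 55070 and 45050 CPM. Every Old-GSTA4 library was above every Old-GFP library, with Old-GSTA4 replicate 2 closest to the controls. The means were 21100 ± 7012 CPM (SD, n = 3) and 44400 ± 10390 CPM (SD, n = 4). In the fit the log2 fold change was 1.07 ± 0.42 (SE; edgeR, adjusted p = 0.383, unadjusted 0.0292). As a share of library counts, which uses no TMM factor, Trf was at 2.61%, 2.49% and 1.79% in Old-GFP and at 4.56%, 2.73%, 4.78% and 4.21% in Old-GSTA4, again without overlap. How many of all genes did not overlap on this scale was not counted. DESeq2 was the only alternative in which Trf passed, at an adjusted p-value of 0.0454, where the adjusted p-values of all 18 alternatives ran up to 0.900.

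Within each group, the libraries ranked by Trf in nearly the same order as by the summed RPE markers. In Old-GFP replicate 1 was highest and 3 lowest for both, and in Old-GSTA4 replicate 3 was highest and 2 lowest for both. Across the groups this order did not hold. Old-GSTA4 replicate 2 had a smaller RPE share than Old-GFP replicates 1 and 2 (5.89% against 7.37% and 6.25%). Its Trf share was larger (2.73% against 2.61% and 2.49%). The part of RPE content in the Trf difference between the groups was not tested. Per count on the 18 RPE markers, Trf had 0.354, 0.398 and 0.528 counts in Old-GFP replicates 1 to 3. The same ratio was 0.552, 0.464, 0.480 and 0.471 in Old-GSTA4 replicates 1 to 4, so that on this scale the groups overlapped. The RPE and rod scores used as covariates are means of the markers' log2 CPM, not the summed shares. With the RPE score the log2 fold change of Trf was 0.72 (edgeR, adjusted p = 0.301, unadjusted 0.0130). With the rod score it was 0.69 (edgeR, adjusted p = 0.720, unadjusted 0.253). In these fits 12.8% and 9.21% of all genes had an unadjusted p-value under 0.05. Oligodendrocytes are another source of transferrin. Their summed markers overlapped between the groups, but 8 of the 9 tested were above 0, with a median log2 fold change of 0.50, and their part in the Trf level was not tested. Gm20425, a locus on the same strand that shares 2108 exonic bases with Trf, has no row in the table, and how reads in the shared bases were assigned is not given in the sources used here.

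The transferrin receptor (Tfrc, ENSMUSG00000022797.16, chr16:32608920-32632794, plus strand), whose 3′ UTR carries the 4 hairpins printed above, varied little. It was at 113, 103 and 80.3 CPM in Old-GFP replicates 1 to 3. In Old-GSTA4 replicates 1 to 4 it was at 103, 121, 123 and 119 CPM. The ranges overlapped, with Old-GFP replicate 3 lowest and Old-GSTA4 replicate 1 at the level of the controls. Its log2 fold change was 0.24 ± 0.20 (SE; edgeR, adjusted p = 0.661), and it was -0.04 when scaled to library totals. Tfrc took 0.0108% to 0.0112% of the counts in Old-GFP and 0.00993% to 0.0112% in Old-GSTA4. Tfrc, the only member with 3′ UTR hairpins of the shape searched, thus overlapped between the groups.

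Slc11a2 (ENSMUSG00000023030.16, chr15:100387898-100425072, minus strand), the endosomal ferrous iron transporter also known as DMT1, was at 56.8, 52.3 and 48.4 CPM in Old-GFP. It was at 74.7, 45.8, 69.4 and 60.3 CPM in Old-GSTA4 replicates 1 to 4. Old-GSTA4 replicate 2, the library rich in lens markers, was the lowest of all 7, and the other 3 were above every control. Its log2 fold change was 0.25 ± 0.22 (SE), adjusted p = 0.666 in edgeR's test, and it was -0.04 with library totals. Some Slc11a2 mRNAs end in a 3′ UTR with an IRE of another shape than the one searched; isoforms are not separated in the table.

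Ferritin heavy chain (Fth1, ENSMUSG00000024661.7, chr19:9980598-9985098, plus strand) was at 3198, 4006 and 2082 CPM in Old-GFP replicates 1 to 3. In Old-GSTA4 replicates 1 to 4 it was at 2536, 2513, 3023 and 3330 CPM. All 4 Old-GSTA4 values lay inside the range of the controls, and the log2 fold change was -0.12 ± 0.32 (SE; edgeR, adjusted p = 0.907). It was 0.11 without Old-GFP replicate 2, the library with the most Fth1, and below 0 in the other 17 of the 18 alternatives. With the RPE score as a covariate it was -0.42 (edgeR, adjusted p = 0.370, unadjusted 0.0389). With the rod score it was -0.53 (edgeR, adjusted p = 0.728). Scaled to library totals it was -0.38 (edgeR, adjusted p = 0.427), where the median of all genes was -0.37. On that scale Old-GSTA4 replicates 1, 2 and 3 were below every control and replicate 4 was not.

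Ferritin light chain (Ftl1, ENSMUSG00000050708.16, chr7:45457944-45459884, minus strand) was at 1464, 1762 and 913 CPM in Old-GFP. It was at 1751, 3389, 1690 and 2120 CPM in Old-GSTA4 replicates 1 to 4. Old-GSTA4 replicate 2 was far above the rest, and replicates 1 and 3 lay within the range of the controls. Here the log2 fold change was 0.70 ± 0.37 (SE; edgeR, adjusted p = 0.474). Without Old-GSTA4 replicate 2 it was 0.44, and without Old-GFP replicate 3 as well it was 0.20, with adjusted p-values of 0.633 and 0.718. The log2 fold change was 0.52 with the RPE score and 0.24 with the rod score as a covariate. Per 1000 counts on RPE markers, Ftl1 had 19.6, 29.5 and 36.7 counts in Old-GFP replicates 1 to 3. The same ratio was 20.4, 52.0, 14.7 and 22.2 in Old-GSTA4 replicates 1 to 4, so that the groups overlapped. Ferritin genes have processed copies in the genome. The copy listed in the table, Ftl1-ps1, had 303 to 1087 counts per library, where Ftl1 had 19013 to 70626, and how reads that match several copies were counted is not given in the sources used here.

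The ratio of Fth1 to Ftl1 counts within a library does not depend on scaling between libraries. It was 2.19, 2.27 and 2.28 in Old-GFP replicates 1 to 3. In Old-GSTA4 replicates 1 to 4 it was 1.45, 0.742, 1.79 and 1.57. The controls lay close together, at 2.25 ± 0.0533 (SD, n = 3), and all 4 treated libraries lay below them, at 1.39 ± 0.453 (SD, n = 4). For comparison, the ratio of Fth1 to each other gene tested did not overlap between the groups for 9.73% of genes, and that of Ftl1 for 19.7%. The difference in mean log2 ratio, Old-GSTA4 minus Old-GFP, was -0.77. It was -0.49 without Old-GSTA4 replicate 2, and -0.48 without Old-GFP replicate 3 as well. No test was made of this ratio. The sum of both ferritins stayed alike: 0.461%, 0.604% and 0.407% of counts in Old-GFP and 0.413%, 0.533%, 0.409% and 0.509% in Old-GSTA4. Lens markers took 2.85%, 12.6%, 0.464% and 1.41% of counts in Old-GSTA4 replicates 1 to 4, and the lowest ratios belonged to the libraries with most lens counts. In Old-GFP the lens share was 0.939%, 1.58% and 0.465%. Rod markers were lower in every treated library. The part of lens and rod content in the ratio was not tested.

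**Figure D2:**
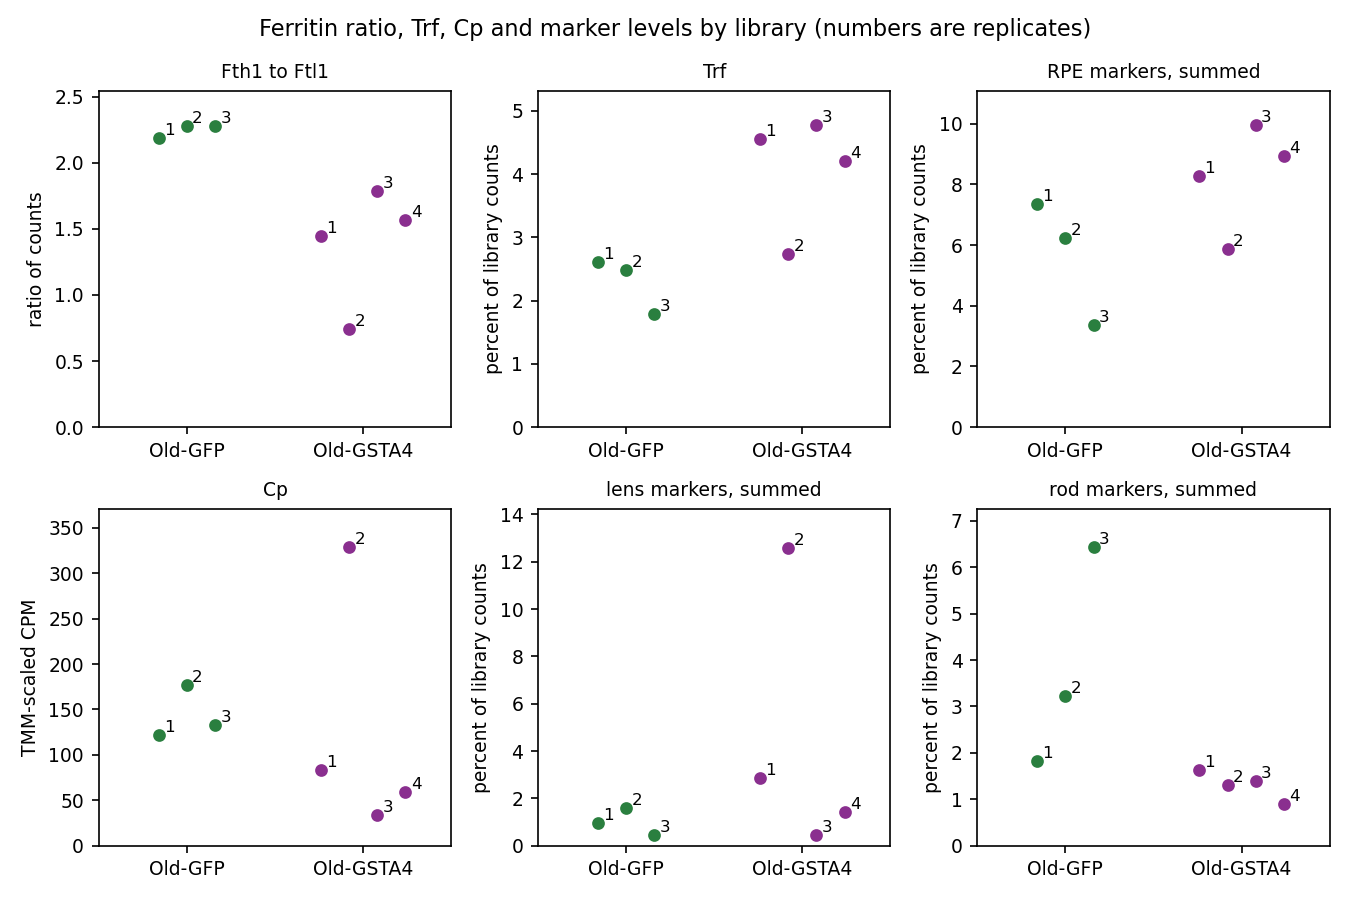
Values by library for the ratio of Fth1 to Ftl1 counts, the share of counts on Trf, the TMM-scaled CPM of Cp, and the summed RPE, lens and rod markers as percent of counts; each point is a library and its number is the replicate, green for Old-GFP and purple for Old-GSTA4. The ferritin ratio of all 4 Old-GSTA4 libraries lies below 2.19, the lowest control, and Old-GSTA4 replicate 2 is lowest in the ratio and highest in Cp and lens markers.

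Ferroportin (Slc40a1, ENSMUSG00000025993.10, chr1:45908068-45926523, minus strand), the known cellular iron exporter, was the least expressed member that was tested. It was at 7.18, 8.07 and 6.77 CPM in Old-GFP, from 141 to 209 counts. It was at 5.42, 6.91, 5.76 and 7.19 CPM in Old-GSTA4 replicates 1 to 4, from 98 to 195 counts. The ranges overlapped, and the log2 fold change was -0.21 ± 0.32 (SE; edgeR, adjusted p = 0.812). Relative to library totals all 4 treated libraries were below the controls, with a log2 fold change of -0.51 (edgeR, adjusted p = 0.448), where the median of all genes was -0.37. Under that scaling, 11.1% of the genes with an unadjusted p-value under 0.05 in edgeR's test were higher. How many of all genes lay below the controls in this way was not counted. The direction of Slc40a1 was negative in all 18 alternatives, from -0.51 to -0.13. Macrophages also make ferroportin. Of the 14 macrophage and microglia markers tested 12 were below 0, with a median log2 fold change of -0.40, and their part in the Slc40a1 level was not tested.

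Hephaestin (Heph, ENSMUSG00000031209.14, chrX:96455359-96574485, plus strand) is a membrane-bound ferroxidase that works beside ferroportin. It was at 58.0, 55.2 and 24.6 CPM in Old-GFP replicates 1 to 3. In Old-GSTA4 replicates 1 to 4 it was at 76.9, 84.2, 111 and 95.8 CPM. Every treated library was above every control, and Old-GFP replicate 3 was the lowest by far. The means were 46.0 ± 18.5 CPM (SD, n = 3) and 91.9 ± 14.7 CPM (SD, n = 4). The log2 fold change was 1.00 ± 0.31 (SE; edgeR, adjusted p = 0.363, unadjusted 0.00968). Heph passed the adjusted threshold in none of the 18 alternatives, where adjusted p-values ran from 0.0732 to 0.865, and its fold change was positive in all of them. Without Old-GFP replicate 3 it was 0.70. With the RPE score as a covariate it was 0.59 (edgeR, adjusted p = 0.280, unadjusted 0.00733). With the rod score it was 0.43 (edgeR, adjusted p = 0.755, unadjusted 0.311). Per 1000 counts on RPE markers, Heph had 0.778, 0.925 and 0.989 counts in Old-GFP and 0.897, 1.29, 0.964 and 1.00 in Old-GSTA4, so that the groups overlapped on this scale, as they did for Trf.

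Ceruloplasmin (Cp, ENSMUSG00000003617.16, chr3:19957054-20009145, plus strand) is the ferroxidase of plasma and, in a membrane-anchored form, of glia and retina. It was at 122, 177 and 133 CPM in Old-GFP replicates 1 to 3. In Old-GSTA4 replicates 1 to 4 it was at 83.2, 329, 33.3 and 58.6 CPM. Old-GSTA4 replicate 2 held the highest value of all 7 libraries, and the other 3 treated libraries were below every control. The means were 144 ± 29.0 CPM (SD, n = 3) and 126 ± 137 CPM (SD, n = 4), and the log2 fold change was -0.19 ± 0.66 (SE; edgeR, adjusted p = 0.929). This value rested on 1 library: without Old-GSTA4 replicate 2 the log2 fold change was -1.29 (edgeR, adjusted p = 0.325). Without Old-GFP replicate 3 as well it was -1.36 (edgeR, adjusted p = 0.181). Over all alternatives it ran from -1.37 to 0.14. Within Old-GSTA4 the order of Cp over the 4 libraries was that of the lens markers, whose part in the Cp level was not tested. Cp and Heph, which do the same chemistry, thus stood on opposite sides of the controls in 3 of the 4 treated libraries.

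Hephl1 (ENSMUSG00000031936.9, chr9:15051841-15112108, minus strand), the hephaestin-like ferroxidase also called zyklopen, was near the detection limit. It had 0, 0 and 24 counts in Old-GFP replicates 1 to 3 and 0, 1, 2 and 2 in Old-GSTA4 replicates 1 to 4. A count of 0 allows up to 3 counts, which is 0.138 and 0.121 CPM of the total in Old-GFP replicates 1 and 2 and 0.152 CPM in Old-GSTA4 replicate 1; these limits cover counting error only. The 24 counts fell in the library that also had counts on 582 of 1490 olfactory and vomeronasal receptor genes, at 826 CPM of the total against 28.8 to 117 CPM in the others. The table therefore gives no fold change for Hephl1.

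Ireb2 (ENSMUSG00000032293.8, chr9:54863789-54912530, plus strand), the iron regulatory protein controlled mainly by its own degradation, varied little. It was at 49.6, 49.4 and 45.3 CPM in Old-GFP and at 51.4, 50.2, 63.1 and 48.0 CPM in Old-GSTA4 replicates 1 to 4. The ranges overlapped and only Old-GSTA4 replicate 3 stood clearly above the rest. Its log2 fold change was 0.15 ± 0.19 (SE; edgeR, adjusted p = 0.785), and it was -0.15 with library totals.

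**Figure D3:**
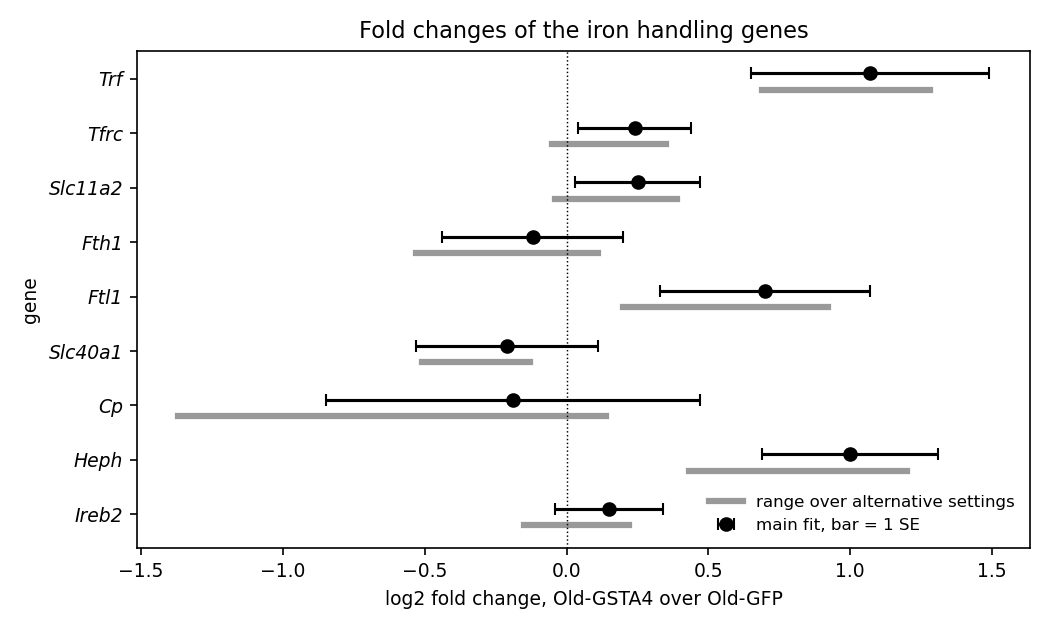
Log2 fold change of the 9 tested members, Old-GSTA4 over Old-GFP; black points and bars are the edgeR estimate ± 1 SE with all 7 libraries and grey bars the range over 18 alternative settings. Trf, Ftl1 and Heph stay above 0 and Slc40a1 below 0 in all of them, and Cp has the widest range, from -1.37 to 0.14.

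Around the members, 74 further symbols of iron and heme handling were listed, of which 72 were in the table and 65 were tested. With edgeR 0 of them passed after adjustment. DESeq2 called 3 of the 65, against 201 of 15075 genes in all. These 3 were Lrp1, the endocytic receptor Lrp2 (log2 fold change in edgeR 0.88 ± 0.24, SE) and Alad, an enzyme of heme synthesis (0.78 ± 0.24, SE). Before adjustment, p was under 0.05 for 12 of the 65, 9 higher and 3 lower, against 5.27% of all genes higher and 6.63% lower. The median log2 fold change was 0.13, against -0.07 over all genes, with 37 genes above 0 and 28 below. The groups did not overlap for 8 genes that were higher and 2 that were lower, against 6.44% and 5.61% of all genes. By role, 2 of 13 uptake genes, 2 of 8 regulators, 4 of 13 genes of heme transport and breakdown, 1 of 8 of heme synthesis and 3 of 19 of mitochondrial iron had an unadjusted p-value under 0.05, and 0 of 4 storage genes.

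Among the partners of the members, Aco1, the other iron regulatory protein, was at 118, 105 and 107 CPM in Old-GFP and at 179, 141, 205 and 180 CPM in Old-GSTA4. Every treated library was above every control, at a log2 fold change of 0.68 ± 0.21 (SE; edgeR, adjusted p = 0.363). Relative to library totals the groups overlapped. Slc39a14, a zinc family transporter that also imports iron not bound to transferrin, was at 14.0, 10.97 and 16.4 CPM and at 25.9, 18.3, 27.3 and 23.5 CPM, a log2 fold change of 0.78 ± 0.26 (SE; edgeR, adjusted p = 0.363); it too overlapped relative to library totals. Hmox1, the inducible enzyme that frees iron from heme, was at 18.9, 34.2 and 11.1 CPM in Old-GFP and at 18.7, 69.5, 21.8 and 21.7 CPM in Old-GSTA4. Its log2 fold change of 0.62 ± 0.53 (SE, adjusted p = 0.664) became -0.04 without Old-GSTA4 replicate 2. Fbxl5, the iron-sensing adaptor that marks Ireb2 for degradation, had a log2 fold change of -0.30 ± 0.22 (SE), and Ncoa4, the receptor that delivers ferritin to lysosomes, one of 0.08 ± 0.24 (SE). Steap3, the endosomal ferric reductase, had one of -0.44 ± 0.43 (SE). Their adjusted p-values in edgeR's test were 0.604, 0.916 and 0.707. Hamp, which encodes hepcidin, the peptide that removes ferroportin from the membrane, had 0 to 8 counts per library and was not tested.

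The largest positive log2 fold changes of the wider list were those of Lrp1, Cubn and Epas1. Lrp1, a scavenger receptor that takes up heme bound to hemopexin among many ligands, was at 202, 201 and 215 CPM in Old-GFP and at 474, 299, 645 and 535 CPM in Old-GSTA4, without overlap; relative to library totals the groups overlapped. Its log2 fold change was 1.25 ± 0.29 (SE; edgeR, adjusted p = 0.363), and DESeq2 gave an adjusted p of 0.00699; over the 18 alternatives the adjusted p-values ran from there to 0.865. Epas1, the hypoxia factor HIF-2α, was at 1.03 ± 0.40 (SE), with Old-GSTA4 replicate 2 below every control. Cubn, an endocytic receptor that can bind transferrin, was at 1.11 ± 0.80 (SE), and without Old-GSTA4 replicate 2 the log2 fold change was 0.17, and without Old-GFP replicate 3 it was 2.24. The most negative were Hp, which encodes haptoglobin, at -1.29 ± 0.68 (SE), the porphyrin exporter Abcg2 at -1.15 ± 0.47 (SE) and the heme synthesis enzyme Cpox at -1.13 ± 0.62 (SE). For all 3, Old-GFP replicate 3 held the highest value, and without it the log2 fold changes were -0.36 for Hp, -0.65 for Abcg2 and -0.58 for Cpox. The adjusted p-values in edgeR were 0.383 for Epas1, 0.596 for Cubn, 0.474 for Hp, 0.393 for Abcg2 and 0.492 for Cpox.

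**Figure D4:**
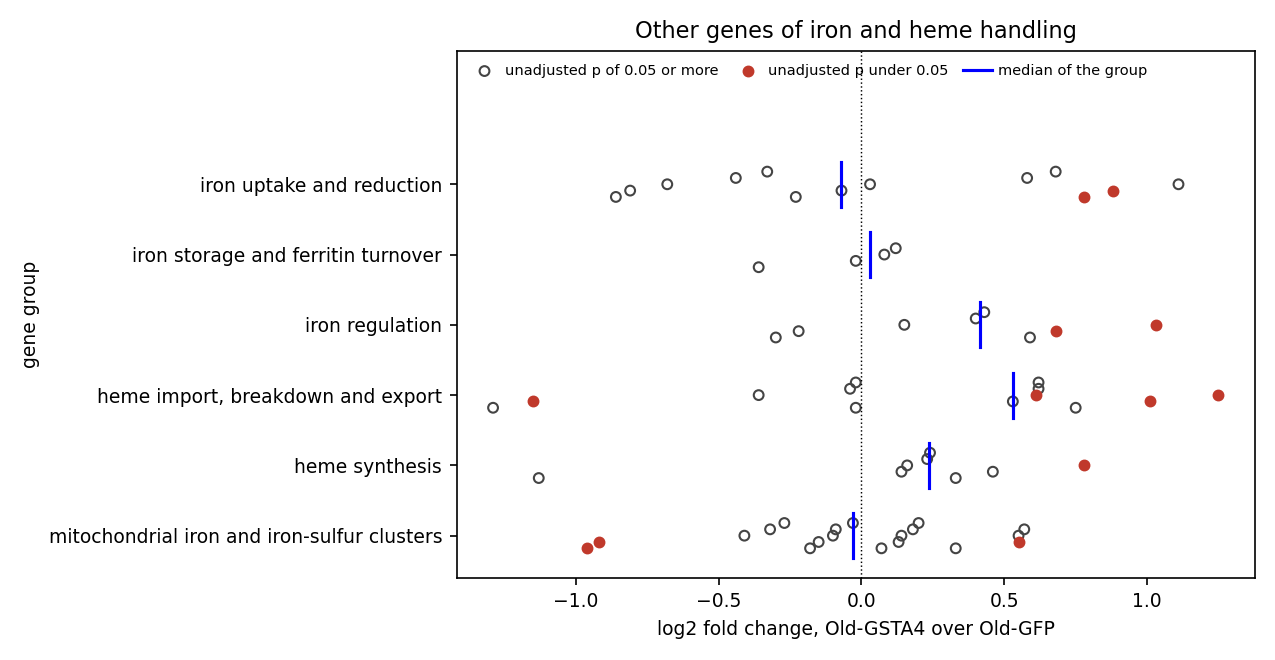
Log2 fold change, Old-GSTA4 over Old-GFP, of the 65 tested genes of the wider iron and heme list, grouped by role; each circle is a gene, filled red where the unadjusted edgeR p-value was under 0.05, and blue lines are group medians. With TMM scaling the medians of heme transport and of the regulators lie at 0.53 and 0.41, and those of uptake, storage and mitochondrial iron near 0.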

How the data were processed

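Polyadenylated RNA was turned into full-length cDNA with a low-input kit and fragmented with a transposase, which keeps no strand, per the labels' protocols. The authors deposited raw read counts per gene symbol; STAR 2.7.1a, featureCounts 1.6.2 and the builds GRCm38 and GRCh38 are named in the submitters' processing notes, while the annotation and the rule for reads with several matches are not given in the sources used here. Reads from overlapping genes on opposite strands therefore cannot be told apart: Slc11a2 shares 402 exonic bases with Gm5475, Cp 108 with Hps3 and Heph 29 with Hsf3. Ftl1, whose mRNA is 968 bases long, shares 355 with Gm10252 on the opposite strand and 109 with Gm22133 on the same strand. Neither of these loci has a row in the deposited counts. As no molecular identifier is mentioned, copies made by PCR count as separate reads.

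Columns were matched to samples by the library names in the labels, and replicates are numbered by the titles; no column was left over. All 7 libraries entered edgeR 4.0.16 (R 4.3.3) as a quasi-likelihood fit with group as the only factor, TMM scaling, the default expression filter and robust dispersions; the biological coefficient of variation was 48.2%. Of 26 rows with a repeated symbol, none concerned a member. Standard errors are the log2 fold change over the square root of F. CPM values are TMM-scaled unless relative to the total. Every pair of libraries differed beyond sampling noise, and each was counted as 1 replicate. That difference does not show that they came from separate animals. Lengths, coordinates and hairpins come from GENCODE M21 (GRCm38), where all 10 members matched.

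The members and lists were chosen with earlier results of these data known. Named are all members, the 3 largest changes of the wider iron list in each direction, and Hmox1, Aco1, Fbxl5, Ncoa4, Hamp, Steap3 and Slc39a14; Lrp2, Alad and Ftl1-ps1 were added after their values were seen. The alternatives were other scalings, filters and tools (DESeq2 1.42.0, limma 3.58.1), replicate blocks, rod and RPE scores as covariates, and libraries left out.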

Additional observations from a re-analysis of the deposited data

Results flagged for a closer look

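In the group of 4, 1 library of 3 genes lay apart from the other 3, with a gap to the nearest that exceeded Dixon's limit for a share of the group's range on the log2 CPM scale. Of 34 results examined in this way, chance alone would give about 5%. For Tfrc the gap was 0.839 of the range, with Old-GSTA4 replicate 1 low at 103 CPM against 119 to 123 CPM. For Hmox1 it was 0.885, with Old-GSTA4 replicate 2 high at 69.5 CPM against 18.7 to 21.8 CPM. For Cubn it was 0.843, with the same library high at 18.4 CPM against 3.23 to 4.26 CPM. Old-GSTA4 replicate 2 was the library with 12.6% of its counts on lens markers, whose part in these values was not tested.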

How the results depend on the processing

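The number of genes that passed after adjustment, 0 in edgeR, was 201 in DESeq2 (118 higher and 83 lower), and 1 with the rod score covariate and with a replicate block by either numbering. It ran from 0 to 1 as each library was left out, and was 0 in limma-voom and with the other scalings, filters and the RPE score. Of the iron genes 0 passed in edgeR, 4 in DESeq2 and 0 in every other alternative, each library left out included (range 0 to 0); the cause of the difference between tools was not tested. The difference in log2 ferritin ratio ran from -0.92 to -0.49 as each library was left out. Trf, Ftl1, Slc40a1 and Heph kept their direction in all 18 alternatives, as did Abcg2, Cpox, Epas1, Cubn, Lrp1, Aco1, Fbxl5, Steap3 and Slc39a14. The directions of the other 8 named genes tested did not hold in all, and none of the turned values passed the threshold. With library totals the log2 fold change was -0.04 for Tfrc, -0.04 for Slc11a2, -0.15 for Ireb2 and -0.20 for Ncoa4. With the rod score it was -0.05 for Tfrc and -0.38 for Ncoa4. As each library was left out, Fth1 ran from -0.34 to 0.11 (without Old-GFP replicate 2), Cp from -1.29 to 0.14 (above 0 without Old-GSTA4 replicate 3, and at 0.07 without replicate 4), Hmox1 from -0.04 to 1.13 and Ncoa4 from -0.02 to 0.26. In limma-voom Hp was at 0.32 and Hmox1 at -0.11. Hmox1 was at -0.04 without Old-GSTA4 replicate 2 and at -0.36 without Old-GFP replicate 3 as well, a pair left out after seeing the data. Ncoa4 was at -0.10 without that pair, -0.01 with the block by library number, -0.06 with the RPE score and -0.02 without Old-GFP replicate 3. Same-numbered libraries did not deviate together: correlations of their deviations were -0.0889, 3.33e-05 and 0.00904 by title number, and -0.0889, 0.0146 and -0.128 by library number. The replicate block moved the genes at an unadjusted p-value under 0.05 from 1794 to 849 (title numbers) and 1148 (library numbers), and no iron gene passed with it. None of these correlations between same-numbered libraries was above 0.1, and the one furthest from 0 was -0.128. Depth limits Hephl1 and Hamp, which were too low to test.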
